A study of Mus musculus with 6 samples.

Results

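Eicosanoids are short-lived lipid signals made from arachidonic acid, and the transcripts described here are those of 10 genes that make them or sense them: *Pla2g4a*, *Ptgs1*, *Ptgs2*, *Ptges*, *Tbxas1*, *Ptger2*, *Ptger4*, *Alox5*, *Alox5ap* and *Lta4h*. The genes were taken by symbol from a table of counts per RefSeq transcript, with the transcript of highest total count standing for each gene, and all 10 were found among 24562 gene symbols. RNA-seq was performed on bone marrow-derived macrophages (BMDMs), which were differentiated from mouse marrow for 7 days in medium conditioned by L929 cells and then left unstimulated. The AclyM-KO group (3 libraries) came from C57BL/6J mice with loxP sites around exon 9 of *Acly* that also carried a Cre driven by the *Lyz2* promoter, which acts in macrophages, monocytes and neutrophils. The control group (3 libraries) came from Acly fl/fl mice without Cre. The series record names female mice as donors, whereas the study's reporting summary gives marrow of both sexes, from mice of 8 to 14 weeks, for its culture work, so the donors' sex is uncertain. Per the study's legends, the libraries of a group were technical replicates from 3 pooled mice, so each p-value measures the spread between these libraries and not the spread between mice. Acly deletion and the presence of Cre differ between the same groups and cannot be told apart here.

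Arachidonic acid is held in membrane phospholipids until a phospholipase A2 frees it. Cyclooxygenases turn the free acid into prostaglandin H2, which separate terminal synthases convert into prostaglandin E2, thromboxane A2 and the other prostanoids. In the other arm, 5-lipoxygenase and its helper protein FLAP form leukotriene A4, which is hydrolysed to leukotriene B4 or joined to glutathione to give cysteinyl leukotrienes. Macrophages run both arms and also carry EP2 and EP4, the prostaglandin E2 receptors that raise cyclic AMP through the stimulatory G protein.

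Libraries held 19327459 to 23582992 transcript-level counts, except AclyM-KO replicate 2 with 44507233. *Acly*, the deleted gene, was at 220.4, 233 and 236 CPM (counts scaled to the normalized library size) in control and 93.3, 98.9 and 98.3 CPM in AclyM-KO libraries, a log2 fold change of -1.25 (standard error, SE, 0.066, adjusted p = 5.58e-07 in edgeR). *Lyz2*, whose promoter drives the Cre, also fell (log2 fold change -1.05, adjusted p = 2.21e-05 in edgeR). The macrophage genes *Cd68*, *Adgre1* and *Itgam* did not pass the threshold, whereas *Csf1r* (-0.48) and *Mertk* (-0.67) fell, and the summed level of 8 macrophage markers was 10900 to 11000 CPM in control and 9690 to 10800 CPM in AclyM-KO libraries. All 8 proliferation markers were higher in AclyM-KO, with sums of 425 to 493 CPM in control against 604 to 842 CPM, and the highest sum was in AclyM-KO replicate 2.

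In unstimulated AclyM-KO BMDMs, transcripts of 2 successive enzymes of the thromboxane route, *Ptgs1* and *Tbxas1*, were lower than in control BMDMs. In edgeR 0 members passed the test in the upward direction (1, *Alox5*, at an unadjusted p under 0.05), as with DESeq2 (0) and limma-voom with sample weights (0). *Ptger4* was lower in every AclyM-KO library without passing the threshold, *Alox5* was low and variable, and *Alox5ap*, *Lta4h*, *Ptger2* and *Pla2g4a* had intervals that reached across 0. Of the 9 members with enough counts to test, 2 of 9 (22.2%) passed, beside 12.3% of the 11470 genes tested. As lower, 22.2% passed, beside 5.65% of all genes. The members were chosen with earlier results of these data known, so these shares were not independent of the data. The median log2 fold change of the 9 was -0.02 and that of all genes tested was 0. The ranges of the groups did not overlap for 3 of the 9 (33.3%), beside 32.8% of all genes, so the members' share without overlap was near the background.

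**Figure D1:**
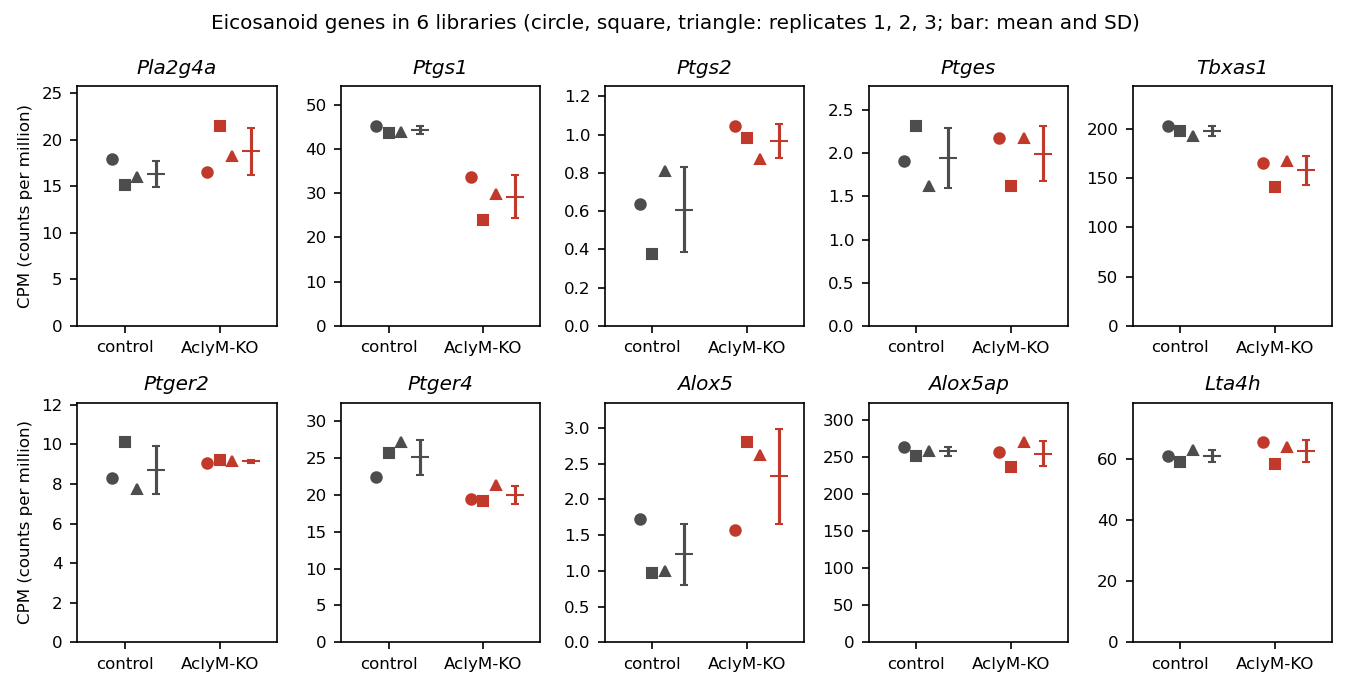
Level of each of the 10 genes in CPM (y axis, starting at 0, own scale per gene) in the 3 control (grey) and 3 AclyM-KO (red) libraries, with the mean and SD beside the points. The points of *Ptgs1*, *Tbxas1* and *Ptger4* lie lower in all AclyM-KO libraries, and those of *Alox5ap* and *Lta4h* overlap.

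The upstream sequences of *Ptgs1* and *Tbxas1* are shown because these were the members that fell, and that of *Ptgs2* because it makes the same product as *Ptgs1* from another promoter. Each run is the 250 bases before the transcript start in RefSeq (build GRCm38.p6), read 5′ to 3′ on the strand of the gene, with capitals for matches to the motifs described next. The *Ptgs1* window is chr2:36230176-36230425 (plus strand), the *Ptgs2* window chr1:150099781-150100030 (plus strand) and the *Tbxas1* window chr6:38918736-38918985 (plus strand). The starts used for *Ptgs1* and *Tbxas1* lie 13.7 kb and 54.8 kb inside loci whose annotation also holds an earlier first base.
Ptgs1: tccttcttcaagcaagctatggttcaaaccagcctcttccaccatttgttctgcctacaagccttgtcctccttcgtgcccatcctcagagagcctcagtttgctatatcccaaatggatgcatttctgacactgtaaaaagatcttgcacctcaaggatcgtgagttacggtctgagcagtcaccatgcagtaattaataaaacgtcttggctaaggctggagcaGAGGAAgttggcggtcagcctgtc
Ptgs2: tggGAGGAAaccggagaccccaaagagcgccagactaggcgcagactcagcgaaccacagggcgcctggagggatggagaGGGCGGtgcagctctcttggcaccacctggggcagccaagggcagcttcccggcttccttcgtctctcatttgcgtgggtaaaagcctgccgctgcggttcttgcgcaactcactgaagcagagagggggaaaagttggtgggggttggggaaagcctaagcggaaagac
Tbxas1: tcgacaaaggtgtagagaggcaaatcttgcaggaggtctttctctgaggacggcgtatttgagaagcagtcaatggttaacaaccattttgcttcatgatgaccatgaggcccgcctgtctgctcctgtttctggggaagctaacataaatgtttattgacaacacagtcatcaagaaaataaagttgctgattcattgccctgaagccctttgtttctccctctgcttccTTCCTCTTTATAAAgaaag

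Windows were found for 9 of the 10 members, with 2 for *Pla2g4a*. On both strands they were searched for the GC box GGGCGG, the TATA box TATAAA, the core GAGGAA that the macrophage factor PU.1 recognizes, the cyclic AMP response element TGACGTCA, the nuclear receptor half-site AGGTCA and the sterol response element TCACNCCAC. The PU.1 core stood at 24 to 19 bases before the start in *Ptgs1* and at 19 to 14 bases in *Tbxas1*, where the capitals run on into overlapping TATA box matches at 13 to 8 and 11 to 6 bases. In *Ptgs2* it stood farther away, at 247 to 242 bases, and a GC box lay at 170 to 165 bases. The PU.1 core was present in 6 of the 9 members with a window (*Ptgs1*, *Ptgs2*, *Ptges*, *Tbxas1*, *Alox5* and *Lta4h*) and in 23.3% of all 32851 RefSeq windows. The GC box was in 4 members and in 32.7% of all windows, and the TATA box was in 2 members and in 12.4%. For *Pla2g4a* a match in either window counted, and its TATA box match was in 1 of its 2 windows. The *Ptger4* window held 4 GC box matches, a pair of them overlapping by a base, and was 66.8% G and C, whereas the *Ptger2* window held none of the 6 motifs and was 38% G and C, beside a median of 52.4% over all windows. The cyclic AMP response element (1.55% of all windows) and the sterol response element (1.05%) were in none of the members' windows. The half-site (14% of all windows) was only in 1 of the 2 *Pla2g4a* windows. A match describes letters and not a bound site.

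The levels of the members were first ordered per kb of transcript, since counts rise with length. In control libraries *Alox5ap* had the highest level (205.4 ± 4.61 CPM per kb, SD, n = 3), followed by *Tbxas1* (99.4 ± 2.45), *Lta4h* (30 ± 0.94), *Ptgs1* (15.4 ± 0.288), *Ptger4* (7.57 ± 0.711), *Pla2g4a* (5.74 ± 0.49) and *Ptger2* (2.36 ± 0.332 CPM per kb). *Ptges* (0.535), *Alox5* (0.436) and *Ptgs2* (0.136 CPM per kb) were the lowest, and the ranges of *Ptges* and *Alox5* overlapped while all other neighbours in this order were separate. FLAP transcripts were abundant where those of the 5-lipoxygenase that FLAP serves were scarce, and *Ptgs1* was the main cyclooxygenase transcript of these cells. In AclyM-KO libraries the first 4 places were the same, at 202.9 ± 13.3, 79.3 ± 7.4, 30.8 ± 1.82 and 10.2 ± 1.71 CPM per kb. *Pla2g4a* (6.58 CPM per kb) then stood before *Ptger4* (6.02) and *Alox5* (0.825) before *Ptges* (0.547), but the ranges within each of these pairs overlapped.

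**Figure D2:**
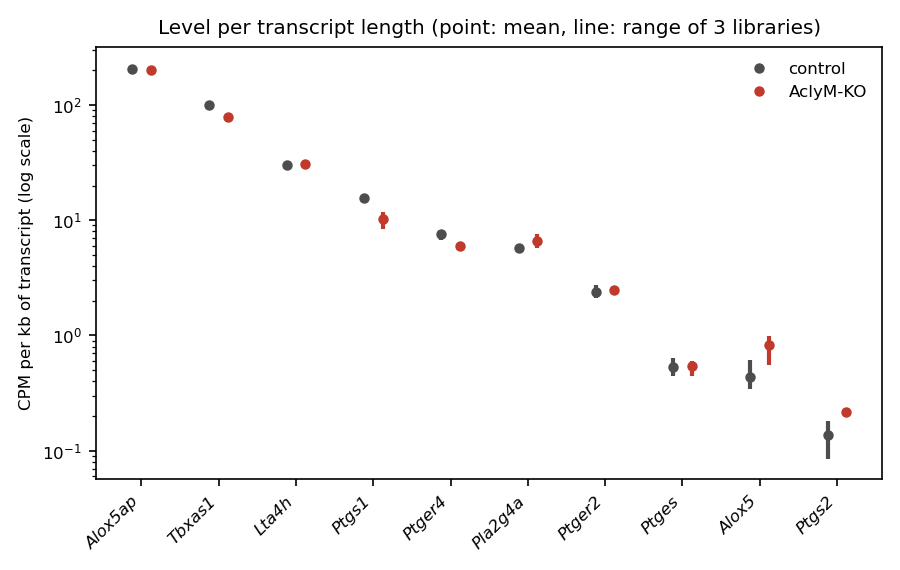
Level of the 10 genes in CPM per kb of transcript (log y axis), ordered by their control level, with the mean (point) and the range of 3 libraries (line) for control (grey) and AclyM-KO (red). Levels run from 205.4 CPM per kb for *Alox5ap* to 0.136 CPM per kb for *Ptgs2* in control libraries.

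*Pla2g4a* (chr1:149829618-149961290) encodes cytosolic phospholipase A2 alpha, which frees arachidonic acid from membranes, and lies 138.7 kb from *Ptgs2*. It was at 17.9, 15.2 and 16.1 CPM in control and 16.5, 21.5 and 18.3 CPM in AclyM-KO libraries. The groups overlapped, since AclyM-KO replicate 1 was below control replicate 1. The log2 fold change was 0.21 (SE 0.126, 95% interval -0.06 to 0.49, adjusted p = 0.31 in edgeR), and 0.10 without AclyM-KO replicate 2.

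*Ptgs1* (chr2:36216742-36258593) encodes cyclooxygenase-1, the cyclooxygenase that most cells express without a stimulus. Control libraries held 497, 584 and 487 counts, or 45.2, 43.6 and 43.9 CPM, and AclyM-KO libraries held 387, 635 and 343 counts, or 33.7, 24 and 29.9 CPM. All AclyM-KO libraries lay below all control libraries, and the controls were close to each other while the AclyM-KO libraries spread more. The level fell to 0.653 of control (log2 fold change -0.61, SE 0.116, 95% interval -0.87 to -0.36, adjusted p = 0.00588 in edgeR). AclyM-KO replicate 2, the deepest library and the one with the highest sum of proliferation markers, was the lowest. Without it the log2 fold change was -0.47 (adjusted p = 4.43e-04 in edgeR). Among 8326 genes with a mean of at least 10 CPM, the level of *Dhx57*, a putative helicase (Pearson r = 0.998), was among the 2 most like that of *Ptgs1* over the 6 libraries, which share their depth and their genotype split.

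*Ptgs2* (chr1:150100031-150108234) encodes cyclooxygenase-2, the form that inflammatory stimuli induce. Control libraries held 7, 5 and 9 of its counts and AclyM-KO libraries 12, 26 and 10, which is 0.637, 0.374 and 0.812 CPM against 1.04, 0.982 and 0.872 CPM. These are a few reads per library in unstimulated cells, and the AclyM-KO values lay above the control values. The gene did not reach the minimum count for testing. Fitted without that minimum the log2 fold change was 0.69 (SE 0.463, 95% interval -0.26 to 1.63, adjusted p = 0.428 in edgeR). This interval spans both directions.

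*Tbxas1* (chr6:38864159-39084590) encodes thromboxane A synthase, which turns prostaglandin H2 into thromboxane A2. It was at 203, 198 and 193 CPM in control and 165, 141 and 167 CPM in AclyM-KO libraries, from 1899 to 3726 counts per library. Again all AclyM-KO libraries were below the controls and replicate 2 was the lowest. The level fell to 0.796 of control (log2 fold change -0.33, SE 0.077, 95% interval -0.50 to -0.16, adjusted p = 0.0176 in edgeR). The call was lost without any one of control replicates 1, 2 and 3 (log2 fold change -0.31, -0.33 and -0.35, adjusted p = 0.0903, 0.075 and 0.0683 in edgeR). Calls over all genes also fell without these libraries (598, 658 and 628, beside 1416). Without AclyM-KO replicate 2 the log2 fold change was -0.25 (adjusted p = 0.00218 in edgeR). The genes with the most similar levels over the 6 libraries were *Casp2*, a caspase (r = 0.997), and *Tgfbr2*, a receptor for TGF-beta (r = 0.996).

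*Tbxas1* is also known from platelets and their precursors, and the summed level of 8 megakaryocyte and platelet markers was 1.64 to 2.46 CPM in control and 2.49 to 3.49 CPM in AclyM-KO libraries, with 3 of the 8 at 0 in every library. Of these markers only *Gp1ba* could be tested, at 1.23 CPM in control and 0.953 CPM in AclyM-KO on average (adjusted p = 0.455 in edgeR), and *Tubb1* was at 0.663 and 0.466 CPM. *Ppbp* (0.256 and 0.934 CPM), *Gp1bb* (0 and 0.462 CPM) and *Itga2b* (0 and 0.138 CPM) were higher in AclyM-KO on average, too low to test. Their part in the *Tbxas1* values was not tested. *Ptgs1* and *Tbxas1* share 148 and 144 exonic bases with annotated transcripts of the other strand (*Gm43621* and *Gm42962*). The part of proliferation in the fall of *Ptgs1* and *Tbxas1* was not tested. In these bulk samples, fewer cells that express a gene and less RNA per cell cannot be told apart.

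*Ptges* (chr2:30889471-30931020) encodes the inducible microsomal prostaglandin E synthase that often works with cyclooxygenase-2. It was at 1.91, 2.32 and 1.62 CPM in control and 2.18, 1.62 and 2.18 CPM in AclyM-KO libraries. The groups overlapped fully, and the log2 fold change was -0.02 with a 95% interval from -0.60 to 0.55 (adjusted p = 0.967 in edgeR).

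**Figure D3:**
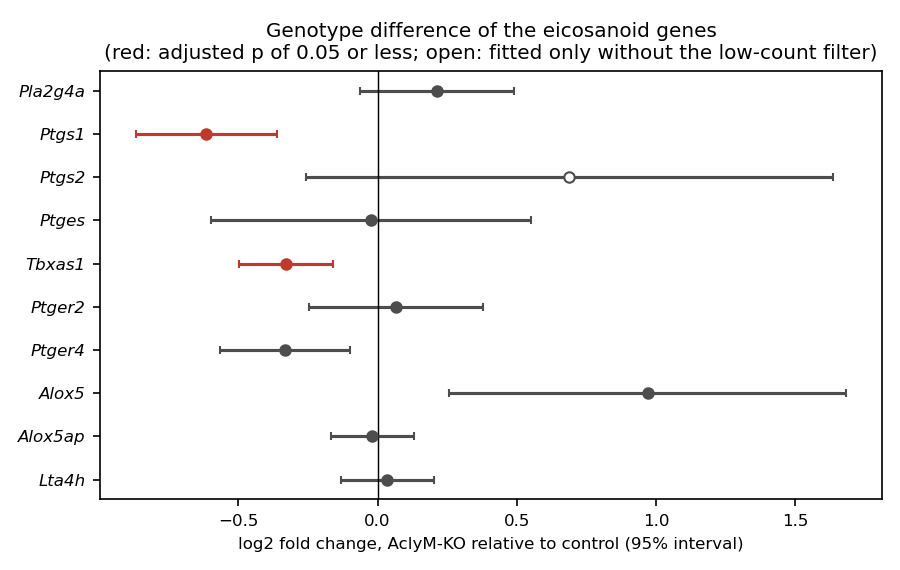
Log2 fold change of AclyM-KO relative to control (x axis) with its 95% interval for each of the 10 genes, red where the adjusted p was 0.05 or less. *Ptgs1* (-0.61) and *Tbxas1* (-0.33) are red, the intervals of *Ptger4* (below 0) and *Alox5* (above 0) exclude 0 without passing the adjusted threshold, and *Ptgs2* (open) was fitted only without the minimum count.

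The receptors EP2 and EP4 both raise cyclic AMP, and their transcripts differed in how they lay between the genotypes. *Ptger2* (chr14:44988111-45003820), encoding EP2, was at 8.28, 10.1 and 7.76 CPM in control and 9.05, 9.22 and 9.16 CPM in AclyM-KO libraries. The AclyM-KO values lay within the control range, with a log2 fold change of 0.07 (SE 0.144, 95% interval -0.25 to 0.38, adjusted p = 0.819 in edgeR).

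*Ptger4* (chr15:5233399-5244187), encoding EP4, was at 22.5, 25.6 and 27.1 CPM in control and 19.4, 19.2 and 21.3 CPM in AclyM-KO libraries. The groups did not overlap, but the log2 fold change of -0.33 (SE 0.106, 95% interval -0.57 to -0.10) had an adjusted p of 0.0625 in edgeR, which missed the threshold. It passed under 1 of 17 alternatives, an offset for GC content (adjusted p = 0.0321 in edgeR), and over the 17 the adjusted p ranged up to 0.243, without control replicate 3, with 0.0984 in DESeq2. The 2 RefSeq transcripts of *Ptger4* gave nearly the same counts in each library, and on the opposite strand 1015 of its exonic bases are shared with the processed pseudogene *Gm15937* and 82 with *Ttc33*. Of the summed level per kb of both receptors, *Ptger4* made up 75.1%, 73.9% and 79.5% in control and 70.5%, 69.8% and 72.1% in AclyM-KO libraries. The mean share was 76.2% ± 2.96 against 70.8% ± 1.19 (SD, n = 3 each), 5.38 percentage points apart without overlap, and this difference was not tested. The difference was -3.52 points with the transcripts of each gene summed and -3.70 to -6.53 points with a library left out.

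In the leukotriene arm, *Alox5* (chr6:116410071-116461178) encodes 5-lipoxygenase, which starts leukotriene synthesis. Control libraries held 19, 13 and 11 of its counts and AclyM-KO libraries 18, 74 and 30, or 1.73, 0.972 and 0.992 CPM against 1.57, 2.8 and 2.62 CPM. AclyM-KO replicates 2 and 3 were above all controls and replicate 1 was below control replicate 1. The log2 fold change was 0.97 (SE 0.326, 95% interval 0.26 to 1.68, adjusted p = 0.0752 in edgeR). It passed under 1 of 17 alternatives, without AclyM-KO replicate 1 (1.15, adjusted p = 0.0333 in edgeR), and over the 17 the adjusted p ranged up to 0.258, without control replicate 2 (0.81), with 0.169 in DESeq2.

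Mast cells, basophils and neutrophils are rich in 5-lipoxygenase, so their markers are given beside *Alox5*. The summed level of 8 mast cell and basophil markers was 9.57 to 10.6 CPM in control and 19 to 24.3 CPM in AclyM-KO libraries. Nearly all of this sum was *Kit*, the only one with enough counts to test, which rose from 9.85 to 20.4 CPM on average (log2 fold change 1.07, adjusted p = 5.05e-04 in edgeR). Of the other markers, *Cpa3* averaged 0.165 CPM in control and 0.134 CPM in AclyM-KO, *Gata2* averaged 0.055 and 0.217 CPM with all AclyM-KO libraries above the controls, and 4 of the 8 were at 0 in every library. The 8 neutrophil markers summed to 27.5 to 31.1 CPM in control and 28.7 to 30.4 CPM in AclyM-KO libraries. The part of *Kit*-expressing cells in the *Alox5* values was not tested.

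*Alox5ap* (chr5:149265004-149288153) encodes FLAP, which presents arachidonic acid to 5-lipoxygenase. It was at 263, 251 and 257 CPM in control and 256, 236 and 269 CPM in AclyM-KO libraries. The log2 fold change was -0.02 with a narrow 95% interval from -0.17 to 0.13 (adjusted p = 0.893 in edgeR). *Lta4h* (chr10:93453396-93484896) encodes leukotriene A4 hydrolase, which makes leukotriene B4. It was at 60.9, 58.9 and 62.7 CPM in control and 65.3, 58.3 and 63.9 CPM in AclyM-KO libraries, with a log2 fold change of 0.04 (95% interval -0.13 to 0.20, adjusted p = 0.816 in edgeR). For both genes the groups overlapped.

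Transcripts around these members were examined in 9 lists that follow the route from arachidonic acid to its receptors. Of 86 listed genes 77 had counts and 61 were tested. Of these, 9 were higher (14.8%, beside 6.7% of all genes tested) and 7 lower (11.5%, beside 5.65%). The lists were written with earlier results of these data known, so these shares were not independent of the data. The median log2 fold change of the 61 was -0.03, and the groups did not overlap for 25 of them (41%, beside 32.8% of all genes).

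Of the 4 genes listed for the route from linoleic acid to arachidonic acid and longer acids, 3 could be tested. All 3 rose (100%, beside 12.3% of all genes called in either direction). *Fads2*, the delta-6 desaturase, was at 11.6, 12.3 and 12.9 CPM in control and 80, 89.3 and 91.5 CPM in AclyM-KO libraries. That is a log2 fold change of 2.83 (SE 0.094, adjusted p = 1.52e-08 in edgeR), far outside the spread of either group. *Fads1*, the delta-5 desaturase, rose less (0.32, adjusted p = 0.0068), as did the elongase *Elovl5* (0.29, adjusted p = 0.0305 in edgeR). The *Elovl5* call was lost without control replicate 1, 2 or 3 (adjusted p = 0.147, 0.0954 and 0.102 in edgeR) and the *Fads1* call without control replicate 2 (0.0563), while that of *Fads2* held under all 17 alternatives. *Elovl2*, named after its values were seen, had 0 counts in all controls and 3, 20 and 3 counts in AclyM-KO libraries, too few to test.

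Of 12 tested genes for release and re-esterification of arachidonic acid, 2 were higher and 3 lower (41.7%, beside 12.3% of all genes tested). *Anxa1*, encoding annexin A1, a protein known to restrain phospholipase A2, rose from 663, 747 and 719 CPM to 903, 1444 and 1015 CPM (log2 fold change 0.66, adjusted p = 0.0098 in edgeR). Without AclyM-KO replicate 2 its log2 fold change was 0.44 (adjusted p = 2.86e-05), and the call was lost without control replicate 1 (adjusted p = 0.0568 in edgeR). *Lpcat3*, which places arachidonic acid back into phospholipids, rose by 0.30 on the log2 scale (adjusted p = 0.0237), and 334 of its exonic bases are shared with *Emg1* on the opposite strand. The genes that fell were *Pla2g7*, the secreted hydrolase of platelet-activating factor (-0.72, adjusted p = 0.00118), *Lpcat2*, which makes platelet-activating factor (-0.58, adjusted p = 0.0109), and *Pla2g15*, the lysosomal phospholipase A2 (-0.43, adjusted p = 0.0164 in edgeR). Calls were lost in edgeR for *Lpcat3* without control replicate 1, 2 or 3 or AclyM-KO replicate 3 (adjusted p = 0.111, 0.0639, 0.126 and 0.0776), for *Pla2g15* without control replicate 1, 2 or 3 (0.0747, 0.0641 and 0.0649), and for *Lpcat2* without control replicate 1 (0.0629). *Pla2g7* and *Lpcat2* share 319 and 287 exonic bases with antisense transcripts. *Acsl4*, the arachidonate-preferring acyl-CoA synthetase and the most abundant gene here without a call, averaged 135.8 ± 6.92 CPM in control and 155.9 ± 26.4 CPM in AclyM-KO (SD, n = 3 each, adjusted p = 0.236 in edgeR).

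Of the 6 tested prostanoid synthases outside the members, 0 passed the threshold in edgeR and 0 with DESeq2, while 1 (*Hpgds*) passed as lower with limma-voom with sample weights and 2 had an unadjusted p under 0.05 in edgeR. *Hpgds*, the hematopoietic prostaglandin D synthase, was at 378, 386 and 358 CPM in control and 322, 348 and 324 CPM in AclyM-KO libraries. Its groups did not overlap, with a log2 fold change of -0.17 (95% interval -0.32 to -0.03, adjusted p = 0.108 in edgeR). *Ptgds* and the prostacyclin synthase *Ptgis*, named after their values were seen, had 0 counts in every library.

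Among 5 tested genes of prostanoid transport and breakdown, 2 passed (40%, beside 12.3% of all genes tested). *Ptgr1* (0.42, adjusted p = 0.0178 in edgeR) and *Zadh2*, also known as *Ptgr3* (0.38, adjusted p = 0.0228), both reductases of oxidized prostaglandins or leukotrienes, rose. The *Ptgr1* call was lost without control replicate 1, 2 or 3 (adjusted p = 0.089, 0.0689 and 0.0693 in edgeR) and the *Zadh2* call without control replicate 2 or 3 (0.118 and 0.104). *Ptgr2*, the most abundant of this list, averaged 75.8 ± 3.82 CPM in control and 73.6 ± 3.9 CPM in AclyM-KO (SD, n = 3 each). On the opposite strand 1896 of its exonic bases are shared with *Gm47484*.

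Of the other prostanoid receptors, 1 of 4 tested rose (25%) and 0 fell, beside 12.3% of all genes called in either direction. *Ptgir*, the prostacyclin receptor, which also signals through cyclic AMP, was at 12.3, 11.1 and 11.4 CPM in control and 17.9, 16.8 and 18.8 CPM in AclyM-KO libraries. The groups were well apart (log2 fold change 0.62, SE 0.114, adjusted p = 0.0051 in edgeR). The thromboxane receptor *Tbxa2r*, named after its values were seen, had 1 count in 1 AclyM-KO library and 0 in the others. Counts listed for *Ptger1* (117 ± 8.46 CPM in control and 109 ± 19.4 CPM in AclyM-KO, SD, n = 3 each) are uncertain, since the sources give only default settings for the counting and do not say how strand was treated.

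Downstream in the leukotriene arm, 1 of 7 tested genes passed (14.3%, beside 12.3% of all genes tested). *Cyp4f18*, a hydroxylase of leukotriene B4, fell from 27.3, 22.8 and 26.6 CPM to 16.8, 8.01 and 14.1 CPM (log2 fold change -1.03, SE 0.214, adjusted p = 0.00976 in edgeR), and shares 181 exonic bases with *Zfp961* on the other strand. *Ltc4s*, the leukotriene C4 synthase, named after its values were seen, averaged 5.81 ± 0.030 CPM in control and 5.07 ± 1.26 CPM in AclyM-KO (SD, n = 3 each, adjusted p = 0.497 in edgeR). The exporter *Abcc1* was at -0.04 on the log2 scale (adjusted p = 0.801) and the receptor *Cysltr1* at -0.16 (adjusted p = 0.381), or -0.27 without AclyM-KO replicate 2 (adjusted p = 0.0467) and -0.07 without replicate 3, and 0 of 2 tested leukotriene and lipoxin receptors passed in edgeR (0 at an unadjusted p under 0.05, 0 with DESeq2 and 0 with limma-voom with sample weights). In the list of other lipoxygenases and the epoxide route, *Cyp2j6*, an epoxygenase, fell from 13.4, 11.7 and 14.9 CPM to 8.27, 7.71 and 7.94 CPM (-0.74, adjusted p = 0.00497 in edgeR), and *Ephx1*, an epoxide hydrolase, was at -0.29 on the log2 scale (adjusted p = 0.167), or -0.12 without AclyM-KO replicate 2. 6 further genes of this list had too few counts to test, among them *Alox15*, named after its values were seen, with 0 counts in controls and 4, 2 and 1 in AclyM-KO libraries.

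Of the 20 tested genes of stimulatory G protein and cyclic AMP signalling below EP2 and EP4, 1 rose and 2 fell. That is 15%, beside 12.3% of all genes tested. The groups did not overlap for 30%, beside 32.8% of all genes, so both shares were near the background. *Pde4b*, a phosphodiesterase that degrades cyclic AMP, fell from 20.6, 19 and 19.6 CPM to 12.2, 7.93 and 10.6 CPM (log2 fold change -0.98, SE 0.152, adjusted p = 0.00205 in edgeR). *Adcy3*, an adenylyl cyclase that makes cyclic AMP, fell by 0.47 on the log2 scale (adjusted p = 0.0119), a call lost without control replicate 1 or 3 (adjusted p = 0.0526 and 0.0763 in edgeR), and 1380 of its exonic bases are shared with *Cenpo* on the opposite strand. *Prkar2b*, a regulatory subunit of protein kinase A, rose from 22.4, 21.5 and 21.1 CPM to 30.9, 40.4 and 34.7 CPM (0.71, adjusted p = 0.00205 in edgeR). *Gnai2*, the most abundant gene of the list and a subunit of the inhibitory G protein, had a log2 fold change of 0.03 (95% interval -0.12 to 0.19).

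**Figure D4:**
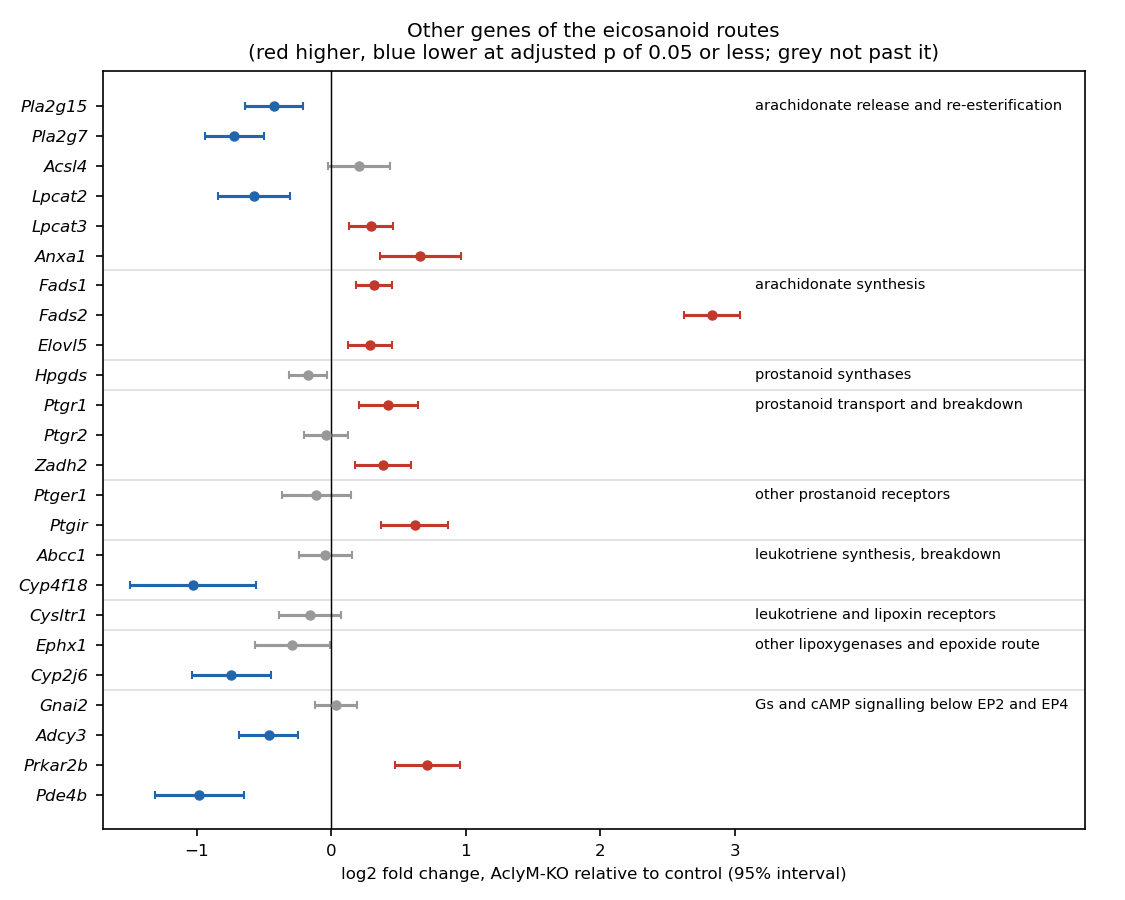
Log2 fold change of AclyM-KO relative to control (x axis) with its 95% interval for the named genes of the 9 lists, red where higher and blue where lower at an adjusted p of 0.05 or less, grey otherwise. *Fads2* at 2.83 stands apart on the right, and *Cyp4f18* (-1.03) and *Pde4b* (-0.98) are the lowest.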

How the data were processed

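Strand-specific mRNA libraries (KAPA mRNA HyperPrep) of unstimulated BMDMs were sequenced on a HiSeq instrument. Per the submitters' processing notes and the study's methods, CASAVA 1.8.2 and STAR 2.5.2b (mm10) were used, alignments were kept above a mapping quality of 15, and the authors deposited raw counts per RefSeq transcript made with HOMER2 at its default settings, with no separate statement on strand. The table has 35745 transcripts, and 6 columns that the labels tie to no sample given were not used. Symbols came from RefSeq for 35440 transcripts and from GENCODE for 188, and 117 had none. The transcript with the highest total stood for each gene, so libraries entered with 11120034 to 25814853 counts. Tests used edgeR 4.0.16 in R 4.3.3 (quasi-likelihood, TMM, filterByExpr, Benjamini-Hochberg over 11470 genes, threshold 0.05), and standard errors were the log2 fold change over the square root of F. The spread between libraries, which edgeR calls the biological coefficient of variation, was 8.9% and holds no spread between mice. The scripts were tested on simulated data. Libraries of a group differed beyond sampling noise, so each counted as 1 replicate. Same-numbered libraries did not deviate together (r = 0.094, 0.12 and -0.053), so numbers were not taken as pairs. Alternatives included DESeq2 1.42.0, limma 3.58.1 (voom with sample weights), other scalings and filters, a GC offset, AclyM-KO replicate 2 thinned to 11753905 counts, and each library left out. Transcript lengths were those of matched GENCODE transcripts. Named were all 10 genes, every listed gene past the threshold, the most abundant other gene of each list, the 2 genes with levels most like each member that passed, and *Acly* and *Lyz2*, except for items that are not reported here. The members and lists were chosen with earlier results of these data known.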

Additional observations from a re-analysis of the deposited data

How the results depend on the processing

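Over 17 alternatives per gene, *Ptgs1* stayed past the threshold in all 17 (log2 fold change -0.74 to -0.47) and *Tbxas1* in 14 of 17, and of the 18 named genes that passed, 8 passed under every alternative and 0 changed direction. The 23 lost calls came from leaving out a library: 22 from 1 of the controls and 1 from AclyM-KO replicate 3. Without a control the number of calls over all genes fell as well, as given below. When single libraries were left out, 0 to 1 members were higher and 1 to 2 lower, and 4 to 9 listed genes were higher and 4 to 9 lower. At a threshold of 0.01, 0 members were higher, 1 was lower, and 5 listed genes were higher and 4 lower.

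Directions turned for members near 0. *Ptges* was at 3e-04 with DESeq2, 0.0147 with total counts only, 0.0995 with limma-voom and sample weights together, 0.0465 with AclyM-KO replicate 2 thinned, and -0.135 to 0.148 with a library left out. *Alox5ap* was at 0.0152 with total counts only, 0.0262 with voom and weights, and -0.063 to 0.034 with a library left out. With a library left out, *Ptger2* ranged from -0.012 to 0.19, *Lta4h* from -0.0022 to 0.089, *Ptger1* from -0.196 to 0.04, *Abcc1* from -0.152 to 0.035 and *Gnai2* from -0.032 to 0.094. The cause was not tested. *Hpgds* passed the threshold with voom and weights, with the GC offset and without AclyM-KO replicate 2, and *Cysltr1* only without that library.

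Over all transcripts 2446 of 18933 tested passed, beside 1416 of 11470 genes. The count of 1416 genes moved to 2187 with voom and weights and to 557 at a threshold of 0.01. Without control replicate 1, 2 or 3 it was 598, 658 and 628, and without AclyM-KO replicate 1, 2 or 3 it was 1642, 2136 and 1051. The GC offset, available for 98.1% of tested genes, gave 2090 calls in place of 1416, and *Ptger4* then joined *Ptgs1* and *Tbxas1*. A replicate block gave 1583 calls over all genes, with the same counts of members (0 higher, 2 lower) and of listed genes (9 higher, 7 lower), but only 2 of 3 same-numbered pairs correlated positively. Low counts limit *Ptgs2*, *Alox5* and *Ptges*.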
